A study of Drosophila melanogaster with 8 samples.

Results

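The regions described here are the flanks of broad H3K36me3 domains, that is, the stretches of DNA just outside long blocks of this histone mark in *Drosophila melanogaster* embryos. They were found on the chromosome arms 2L, 3L and 3R without the 1 Mb next to the centromere, which were divided into windows of 2 kb with at least 3 probes each. The value of a window was the mean log2 IP/input of its probes, relative to the median of the array, so that 0 stands for the middle of an array and 1 unit for a doubling of the ratio. A broad run was a row of at least 5 adjacent windows that all reached 2 in the mean of the wild type samples. A window below 2 that lay 1 or 2 windows away from such a run was taken as a flank window. The rule gave 1831 flank windows out of 34173 windows on these arms and 57266 windows in the whole experiment. Of these, 1042 lay next to a run (first flank windows) and 789 lay 1 window further out (second flank windows).

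H3K36me3 was measured by ChIP-chip in whole embryos collected 2 to 4 hr after egg laying in population cages, so that every sample is a pool of embryos and of all their cell types. The mutant embryos carried the *dkdm4a* allele Kdm4AKG04636 in a y1 w67c23 background. This allele is a SUPor-P element, marked with y+mDint2 and wBR.E.BR, that sits in the first exon of *dKDM4A* and abolishes its transcription. The wild type embryos came from a line made from that stock by precise excision of the same P-element, so both groups share the y1 w67c23 background and differ by the insertion. There were 2 biological samples of each genotype, each hybridized to 2 array designs, with DNA precipitated by an anti-H3K36me3 antibody (abcam, ab9050) in Cy5 and input DNA in Cy3. The genotypes could not be checked on the *dKDM4A* locus, because genes were not placed on the probes here.

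Trimethylation of lysine 36 of histone H3 is laid down along the bodies of transcribed genes by the methyltransferase Set2, which travels with elongating RNA polymerase II. The mark is therefore low at promoters, rich towards the 3' parts of active genes and scarce between genes, so that blocks of active genes appear as domains with borders. dKDM4A is a JmjC-domain demethylase that removes methyl groups from this residue and binds the heterochromatin protein HP1a. The flanks are the places where a domain ends, and they were examined for the shape of that border and for any difference in the embryos that lack the demethylase.

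The median processed signal of the 8 arrays was 608.8 to 988.5 units in the input channel and 83.4 to 130.4 units in the IP channel, and 85.6% to 93.3% of the IP probes were well above background. In the flank windows this share was 94.6% and 88.2% in the wild type replicates and 93.1% and 87.7% in the mutant replicates. Over the flank windows, Pearson's r was 0.938 between the wild type samples and 0.957 between the mutant samples. It was 0.903 between the genotypes in replicate 1 and 0.940 in replicate 2. These are descriptions over 1831 windows, many of them neighbours on the same array. The scanner headers give the samples numbered 1 the same scan day, and those numbered 2 a different day, so replicate and scan day cannot be told apart.

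The 560 broad runs had 1120 ends and thus 2240 places for a flank window. Runs were 10 to 52 kb long, with a median of 14 kb. At a distance of 1 window, 1092 places held a window below 2 and the remaining 28 held no window with enough probes. At a distance of 2 windows, 840 places were below 2, 245 were at 2 or above and belonged to another run, and 35 had no window. Because 101 windows lay near a run on either side, the 1932 places below 2 came to 1831 windows. These windows held 3 to 12 probes with a median of 8, and 1823 of them held at least 5.

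In every sample the level of H3K36me3 was much lower outside the border than inside it. The rule sets this drop in advance for wild type, since it asks for 2 or above inside and below 2 outside. Window levels were correlated between the genotypes (Pearson's r of 0.903 and 0.940 over the flank windows), so the drop in the mutant is not independent of the rule. Among run and flank windows, most of the decline in the mean took place within about 2 kb of the border. Wild type values chose the windows, so their levels are given as a description only. The last window inside a run had a mean log2 IP/input of 3.56 in wild type replicate 1 and 4.03 in wild type replicate 2. The first flank windows had means of 0.78 and 0.90, and the second flank windows 0.12 and 0.18. In the mutant samples, which the rule did not use, the run ends had means of 3.53 and 4.05, the first flank windows 0.71 and 0.90, and the second flank windows 0.05 and 0.14. The order of run end, first and second flank window was thus the same in the 4 samples. Within the mutant the first flank windows were higher than the second by 0.66 in replicate 1 and 0.75 in replicate 2, a mean of 0.70 ± 0.07 (SD, n = 2). The exact two-sided sign-flip test over these samples gave p = 0.5, which is the smallest value that 2 samples allow. This order depends on the rule, which left out 245 places at a distance of 2 windows, and none at 1 window, for being at 2 or above. With all windows included, the mutant means were 0.73 and 0.92 at the first window and 0.85 and 1.03 at the second. The medians were 0.69 and 0.87 at the first and 0.10 and 0.20 at the second.

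The probes show the border at a finer scale. In bins of 250 bp, mean log2 IP/input of the mutant was 3.90 and 4.47 in replicates 1 and 2 at 1000 to 1250 bp inside the border, and 2.12 and 2.48 in the last 250 bp before it. In the first 250 bp outside the border it was 1.58 and 1.87, and at 1000 to 1250 bp outside 0.42 and 0.60. The wild type values at the same 4 distances were 3.94 and 4.46, 2.18 and 2.43, 1.65 and 1.86, and 0.53 and 0.59. The border is the edge of a 2 kb window and the bins average over 1120 run ends, so the width of single borders was not measured. Beyond 2 kb, where only flank windows were included, the mutant means were between 0.03 and 0.26 in every bin. These outer bins contain 856 to 885 probes each, against 1097 to 1157 in the bins nearer the border, because windows at 2 or above are not flank windows. With those windows included, the mutant means of the second window outside the border were 0.85 and 1.03.

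**Figure D1:**
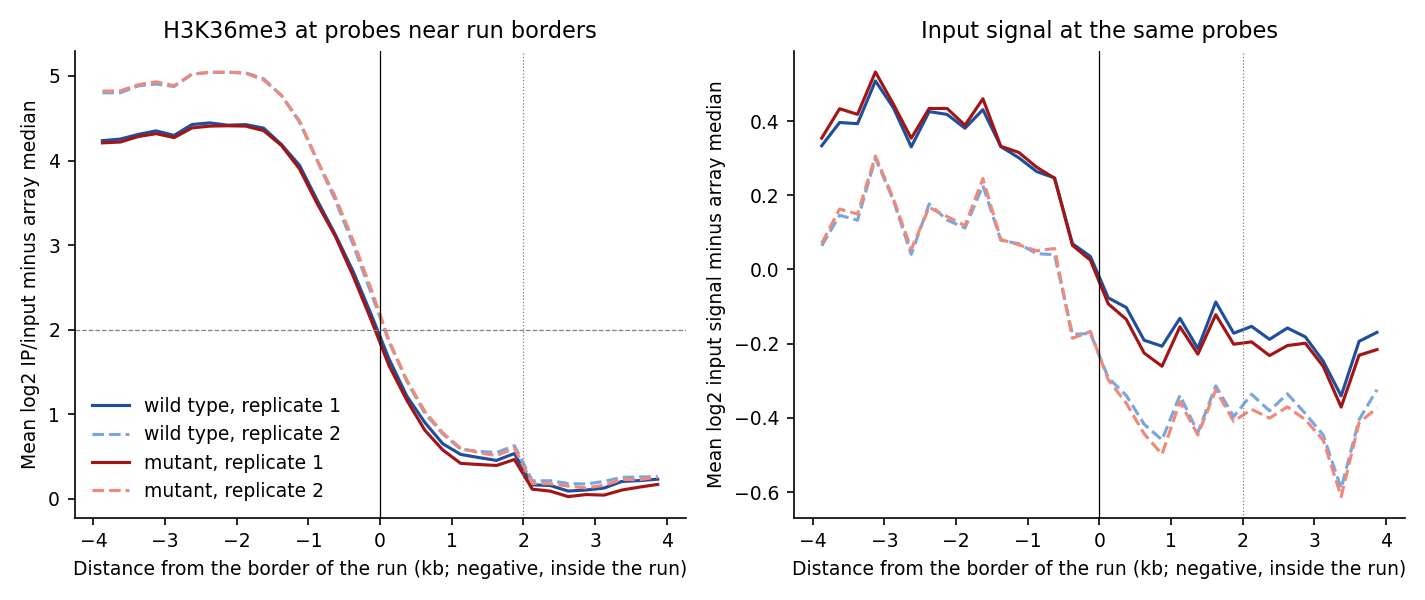
Mean log2 IP/input (left) and mean log2 input signal (right) of probes in bins of 250 bp, plotted against distance from the border of a broad run in kb, with negative distances inside the run. Each line is 1 sample, solid for replicate 1 and dashed for replicate 2. The lines of both genotypes lie close together within a replicate, and the level drops from above 4 at 2 kb inside to below 0.7 at 2 kb outside. Outside the border only flank windows are included, which were below 2 in wild type by the rule.

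The border differed widely in steepness from run to run. On 837 run ends both outer windows were flank windows, so ends whose second window reached 2 in wild type are not among them. The difference between the run end and the first flank window had a median of 2.88 in mutant replicate 1 and 3.23 in mutant replicate 2. Its 10th and 90th percentiles were 1.58 and 4.11 in replicate 1 and 1.81 and 4.60 in replicate 2. In the mutant mean, 146 of these ends were at least 4 above their first flank window and 21 were less than 1 above it. The second flank window was lower than the first in 656 of 837 cases (78.4%) in mutant replicate 1 and in 648 cases (77.4%) in mutant replicate 2. It was more than 1 higher than the first in 17 and 22 cases, so H3K36me3 did not decline outwards at every border.

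First flank windows were spread over the whole range below 2, whereas second flank windows were mostly near or below 0. In wild type, 135 first flank windows were below 0, 239 between 0 and 0.5, 218 between 0.5 and 1, 220 between 1 and 1.5, and 230 between 1.5 and 2. In the mutant mean the same bands held 162, 243, 217, 204 and 163 windows, and 53 further windows were at 2 or above. Of the 789 second flank windows, 412 were below 0 in wild type and 450 (57.0%) were below 0 in the mutant mean. Only 15.5% of the first flank windows were below 0 in the mutant mean.

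**Figure D2:**
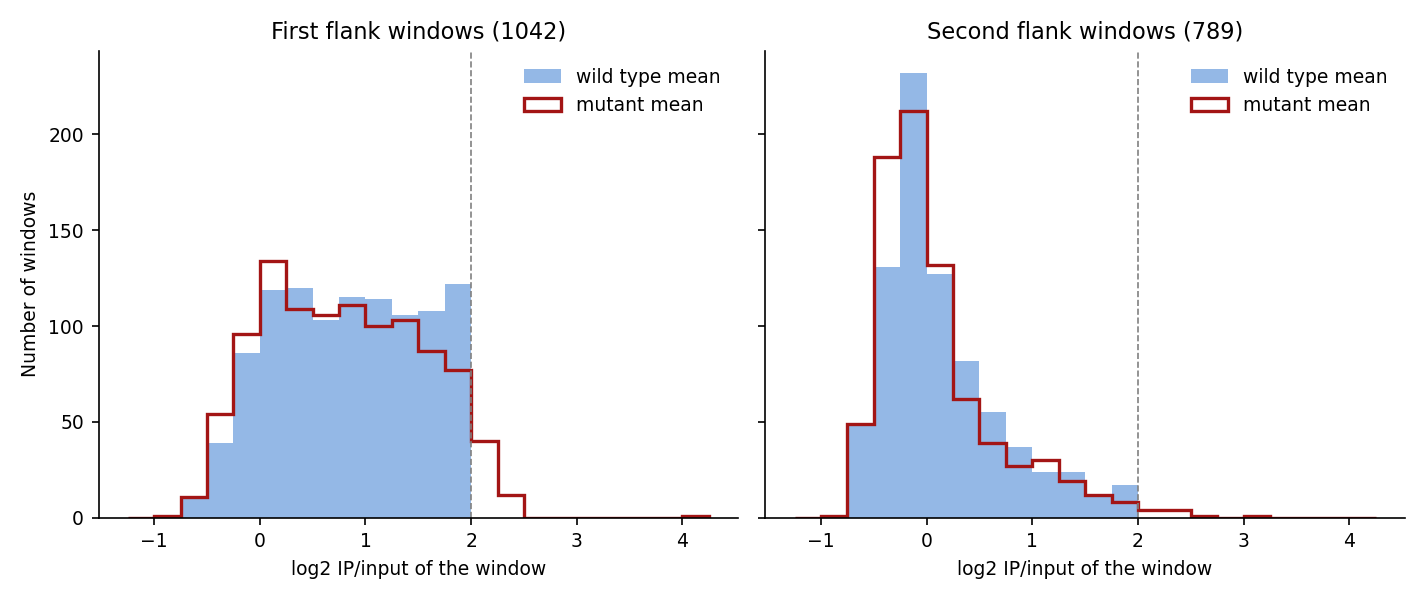
Number of windows by mean log2 IP/input in steps of 0.25, for first flank windows (left, 1042) and second flank windows (right, 789). Filled bars are the wild type mean and the red outline the mutant mean, and the dashed line is the threshold of 2 below which the rule kept a window in wild type. First flank windows fill the range from below 0 to 2, and second flank windows gather around 0.

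The flanks had similar means on either side. First flank windows at the lower-coordinate side had mutant means of 0.68 and 0.88 in replicates 1 and 2, and those at the higher-coordinate side 0.68 and 0.86. Second flank windows had 0.06 and 0.14 on the lower side and 0.04 and 0.14 on the higher side. Transcription direction was not known for the runs, so the sides mix 5' and 3' ends of genes. By arm, the mutant means over both distances were 0.42 and 0.56 on 2L (531 windows), 0.37 and 0.53 on 3L (575 windows), and 0.47 and 0.61 on 3R (725 windows). Over both distances together, the arms differed by less than the replicates did. This did not hold in the second flank windows alone, where the mutant means were 0.09 and 0.20 on 2L, -0.02 and 0.08 on 3L, and 0.08 and 0.16 on 3R. 2L lies on 1 array design, 3L on the other, and 3R is divided between them.

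Flank windows with a further run nearby had higher levels. The 93 first flank windows that had a broad run within reach on either side had mutant means of 1.01 and 1.20, against 0.68 and 0.87 for the 949 beside a single broad run. Of the latter, 220 were also 1 or 2 windows away from a shorter run, and they had mutant means of 1.02 and 1.23. The 729 without any other run within 2 windows had 0.57 and 0.76. The same split gave 0.65 and 0.81 for 119 second flank windows close to a shorter run and -0.06 and 0.02 for the 662 others. The short runs were defined on wild type values. Each contrast was larger than the spread between the mutant samples, and with 2 samples an exact test cannot go below p = 0.5.

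The length of a run said little about its flanks. First flank windows of runs of 5 windows had mutant means of 0.69 and 0.88, and those of runs of 13 or more windows 0.67 and 0.85. Across the 949 first flank windows beside 1 run, the mutant level had a Spearman's rho of -0.02 with run length, 0.19 with the mean mutant level of the run and 0.40 with the mutant level of the adjoining run end. Across 781 second flank windows these values were 0.03, 0.03 and 0.03. They describe windows that share samples and arrays with their runs, and the adjoining windows share DNA fragments that span the border.

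The flanks of broad runs were compared with the surroundings of shorter ones. The 3083 windows that were 1 or 2 windows away from a run of 1 to 4 windows only had mutant means of 0.35 and 0.51, against 0.42 and 0.57 for the flanks of broad runs. The difference was 0.07 in mutant replicate 1 and 0.06 in mutant replicate 2. The sets were not matched for further runs nearby. The flanks of broad runs include 101 windows near 2 broad runs and 339 also near a shorter run, and such windows had higher levels. The difference can therefore not be read as one of run length. The 22437 other windows below 2 lay more than 2 windows from any run. Their mutant means were -0.30 and -0.26, so the flanks of broad runs were higher by 0.73 and 0.83. Second flank windows alone were still higher than the other windows by 0.35 and 0.40. The exact sign-flip test gave p = 0.5 for each of these 3 differences, the smallest possible. Some second flank windows were also close to a further run, and the 662 that were not had mutant means of -0.06 and 0.02. Moving outwards from the ends of the broad runs without regard to the threshold, the median mutant level was 0.10 and 0.20 at 2 windows. At 3 to 10 windows it was 0.07 to 0.14 and 0.15 to 0.26. The mutant means rose, from 0.73 and 0.92 at 1 window to 0.85 and 1.03 at 2 windows and 1.16 and 1.39 at 3 windows. At 4 to 10 windows they were 1.149 to 1.275 and 1.378 to 1.511. The share of windows at 2 or above in the mutant was 5.22% at 1 window, 22.67% at 2 windows and 29.66% at 3 windows. The flank means leave out windows at 2 or above in wild type.

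Flank windows also stood between runs and the other windows in the make-up of their probes and in their input DNA. Probes were 57.4 nt long on average in first and 57.5 nt in second flank windows, against 55.8 nt at run ends and 57.9 nt in the other windows below 2. Mean log2 input signal in the wild type replicates, relative to the array median, was 0.26 and 0.03 at run ends. It was -0.16 and -0.40 in first flank windows, -0.22 and -0.42 in second flank windows and -0.45 and -0.62 in the other windows below 2. The mutant showed the same order, with -0.20 and -0.42 in first flank windows and -0.25 and -0.44 in second flank windows. Input signal thus followed the H3K36me3 level across these kinds of window, and its part in the differences of IP/input was not tested.

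The 3 longest runs illustrate how different the borders of long domains were. The longest lay on 2L from 8030001 to 8082000 (52 kb). Positions are those of the arrays, whose genome build is not given in the sources used here. On the lower side of this run the first flank window had 0.92 and 0.99 in wild type and 0.68 and 1.13 in mutant embryos. The second flank window there had 0.38 and 1.07 in wild type and 0.22 and 0.86 in the mutant. It was thus not lower than the first in every sample. On the higher side the first flank window was already at or below the middle of the array, with -0.01 and 0.02 in wild type and -0.32 and -0.28 in the mutant. Its input signal was low, with -1.32 and -1.79 in wild type and -1.11 and -1.63 in the mutant. Only 75% and 62.5% of its IP probes were well above background in wild type replicates 1 and 2. The first flank window on the lower side had the same shares, 75% and 62.5%. Its input signal was also below the array median in every sample, so neither first flank window of this run was well measured. The genotypes did not overlap in the first flank window on the higher side, but the difference did not pass the test (adjusted p = 1 from limma). A run of the same length on 3L from 6138001 to 6190000 had the same arrangement of sides. Its lower first flank window had 0.62 and 0.57 in wild type and 0.76 and 0.79 in the mutant. Its higher first flank window had -0.27 and -0.11 in wild type and -0.27 and -0.21 in the mutant.

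The third, on 2L from 11092001 to 11138000 (46 kb), had high first flank windows on both sides. They had 1.92 and 1.61 in wild type and 1.65 and 1.60 in the mutant on the lower side, and 1.79 and 1.73 in wild type and 1.85 and 2.13 in the mutant on the higher side. Its second flank window on the lower side, from 11088001 to 11090000, had 0.85 and 1.03 in wild type and 0.45 and 0.45 in the mutant. That difference of -0.49 was not called by limma (adjusted p = 0.769), but was called with scan day as a replicate block (adjusted p = 0.0138). None of the 12 flank windows of these runs passed the adjusted threshold without the block.

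The windows at the threshold show how fine the line is that separates flank and run. The 3 flank windows closest below 2 in the wild type mean were at 2.00, 2.00 and 2.00 after rounding, and their mutant means were 2.20, 2.36 and 1.82. The 3 run windows closest above were at 2.00, 2.00 and 2.01 and had mutant means of 2.12, 1.94 and 2.83. The last of these, the outermost window of a run on 3R from 16934001 to 16936000, had 1.87 and 2.15 in wild type and 2.77 and 2.90 in the mutant, a difference that limma did not call (adjusted p = 0.577).

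At the other extreme, the lowest flank windows were below the middle of the array right beside or near a domain. The window on 3R from 12080001 to 12082000, next to a run of 16 kb, had -0.21 and -0.56 in wild type and -0.81 and -0.75 in the mutant. Among flank windows of at least 5 probes it was second lowest by the mutant mean, after a second flank window on 3L from 4280001 to 4282000 with -1.05 and -0.52 in the mutant. The 3 lowest had mutant means between -0.78 and -0.72.

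The difference between mutant and wild type over all flank windows was small in the mean and differed between replicates. The members were chosen by low wild type values, so these differences are a description, with no test. The mean of mutant minus wild type was -0.071 in replicate pair 1 and -0.015 in replicate pair 2, giving -0.043 ± 0.040 (SD, n = 2). It was -0.073 and -0.00091 in first and -0.068 and -0.033 in second flank windows. The median over the flank windows was -0.058, beside 0.016 over all 57266 windows tested, and 38.9% of the flank windows were higher in the mutant, beside 53.7% of all windows. The mean was below 0 in both replicate pairs, but its sign changed when single samples were left out. Leaving out a sample breaks the pairing by replicate, so those means also hold the difference between replicates. The mean was -0.089 without wild type replicate 1, 0.0032 without wild type replicate 2, 0.031 without mutant replicate 1 and -0.12 without mutant replicate 2. With normexp background correction the mean was 0.081.

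Other kinds of window on the same arms give the scale of these values. In replicate pairs 1 and 2 the mean difference was -0.034 and 0.017 at run ends and -0.022 and 0.029 inside the runs. It was -0.024 and -0.0028 in the flanks of shorter runs and 0.044 and 0.023 in the other windows below 2. Over single flank windows the difference ranged from -0.95 to 3.14, with 5th and 95th percentiles of -0.43 and 0.36. In 1357 windows (74.1%) it was smaller than 0.25 in either direction. It was positive in both replicate pairs in 439 windows, negative in both in 740, and of mixed sign in 652.

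**Figure D3:**
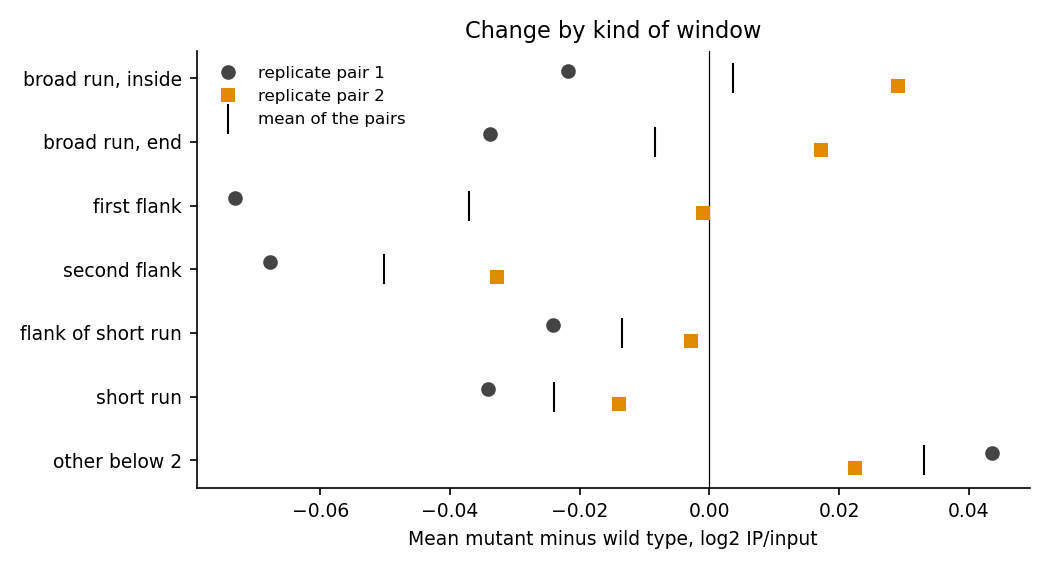
Mean of mutant minus wild type log2 IP/input in each kind of window on 2L, 3L and 3R. Circles are replicate pair 1, squares replicate pair 2 and ticks their mean, with no error bar because there are 2 pairs. First and second flank windows have the lowest values in pair 1, at -0.073 and -0.068, and values nearer 0 in pair 2.

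To keep the choice of windows apart from the reading of the difference, the rule was also applied to one wild type sample and the difference read in the other pair. When the rule was applied to wild type replicate 1 alone, it gave 1781 flank windows, of which 1717 were shared with the main set, and their mean difference in replicate pair 2 was -0.012. When it was applied to wild type replicate 2 alone, it gave 1870 windows, 1750 of them shared, and their mean difference in replicate pair 1 was -0.073. The other windows below 2 in the same readings had 0.019 and 0.035.

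Few flank windows crossed the threshold of 2 between the genotypes. In the mutant mean 63 of the 1831 flank windows were at 2 or above, 53 of them first and 10 second flank windows. Of these, 58 had been at 1.5 or more in wild type, and 31 were at 2 or above in both mutant samples. The count was 116 without mutant replicate 1 and 31 without mutant replicate 2. In the single wild type samples that made up the choosing mean, 3 and 77 flank windows were at 2 or above. In the other direction, 63 of 4444 run windows were below 2 in the mutant mean, among them 38 of the 1120 run ends (3.39%), beside 5.09% of first flank windows at 2 or above. The rule applied to the mutant mean gave 1835 flank windows, and 48 of these were at 2 or above in wild type. These counts depend on the choice of threshold and sample, and no test was made of their difference.

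Called differences between the genotypes were few in the flank windows, and the share called higher was near that of all windows. Limma, with Benjamini-Hochberg adjustment over all 57266 windows, called 6 flank windows higher in the mutant (0.328% of them, beside 0.353% of all windows) and none lower, beside 0.173% of all windows. At an unadjusted p below 0.05, 42 flank windows were higher (2.29% of them, beside 3.74% of all windows) and 90 were lower (4.92% of them, beside 2.07% of all windows). The wild type values chose these windows, and nothing is read from the counts. Without wild type replicate 1 the count of higher windows was 2, both among the 6. With scan day as a replicate block, limma called 77 flank windows higher (4.21% of them, beside 5.40% of all windows) and 107 lower (5.84% of them, beside 3.73% of all windows), with 1 residual degree of freedom per window.

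**Figure D4:**
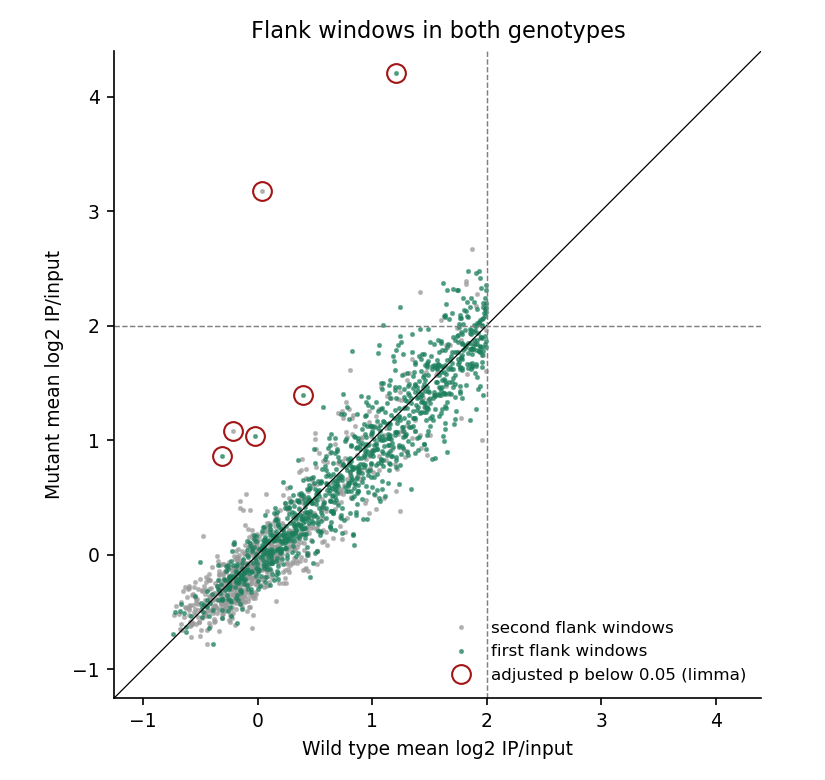
Mutant mean against wild type mean log2 IP/input of the 1831 flank windows, green for first and grey for second flank windows. The solid line marks equal values, the dashed lines the threshold of 2, and the red circles the 6 windows with an adjusted p below 0.05 from limma. Most windows follow the diagonal, and 2 circled windows lie far above it, at 3.18 and 4.20 in the mutant.

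The largest rises lay side by side at the higher-coordinate end of a 24 kb run on 3R from 21070001 to 21094000. In the first flank window, from 21094001 to 21096000, log2 IP/input was 1.11 and 1.30 in the wild type samples and 4.17 and 4.24 in the mutant samples. It rose by 3.00, with a standard error of 0.37 and an adjusted p of 2.52e-12 in the limma fit. In the second flank window, from 21096001 to 21098000, it was 0.07 and 0.01 in wild type and 3.12 and 3.23 in the mutant. This was a rise of 3.14 with an adjusted p of 3.18e-23 and a standard error of 0.29. In the limma fit without a variance trend the adjusted p was 0.038 in both windows. The genotypes were far apart in both windows, and both mutant samples stood above 2. The next window outwards, from 21098001 to 21100000, is not a flank window, and had -0.01 and -0.29 in wild type and 2.35 and 1.84 in the mutant (adjusted p = 5.38e-16). In the window after that, the mutant had 0.30 and -0.08 and wild type -0.28 and -0.04. The last window inside the run had 4.94 and 5.74 in wild type and 4.88 and 5.74 in the mutant, so the domain end itself differed little.

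Single probes showed the same pattern. The 6 probes of the first flank window differed by 1.70, 2.43, 3.19, 3.88, 3.07 and 3.71 in order of position. In wild type the probe nearest to the border, from 21094209 to 21094268, had 2.57 and 2.75, and the probe from 21095040 to 21095099 had 0.10 and 0.24. In the mutant the same probes had 4.25 and 4.47, and 4.28 and 3.83. The 7 probes of the second flank window differed by 2.65 to 3.85. Input signal relative to the array median was -0.37 and -0.39 in wild type and -0.06 and -0.12 in the mutant in the first flank window, a difference of 0.29 (adjusted p = 1 from limma). In the second it was 0.19 and 0.19 in wild type and 0.19 and 0.13 in the mutant.

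**Figure D5:**
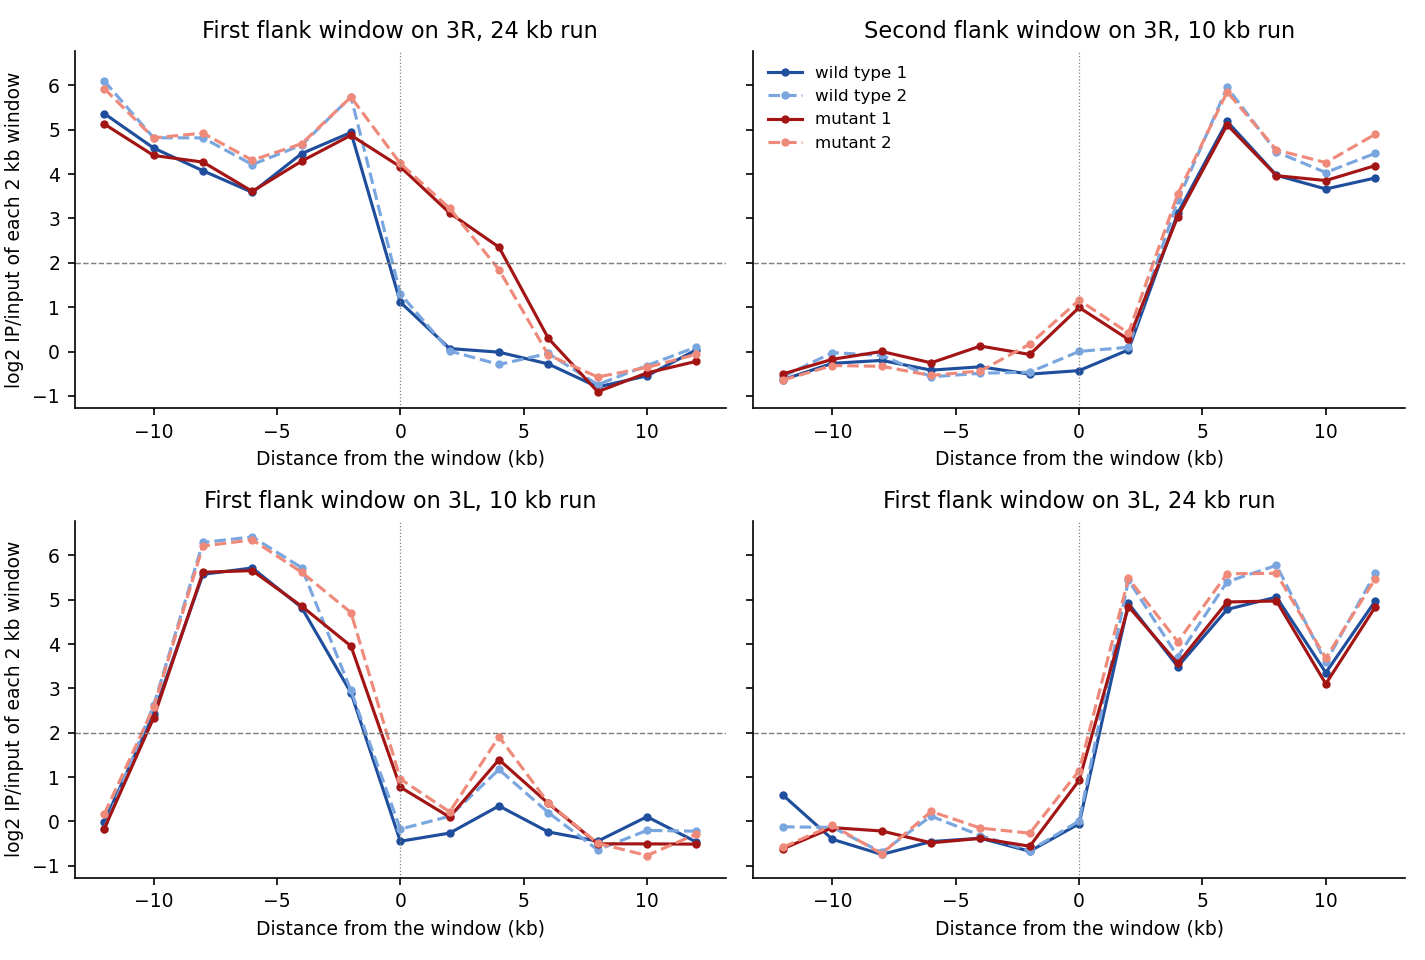
Mean log2 IP/input of 2 kb windows around 4 flank windows called by limma, against distance from that window in kb. Lines are the 4 samples (blue wild type, red mutant; solid replicate 1, dashed replicate 2), and the horizontal dashed line is the threshold of 2. At top left both mutant samples stay above 1.8 for 3 windows beyond the wild type border, and in the other panels the mutant reaches about 1 in the called window.

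The other rises named here were smaller and did not reach the threshold of a domain. On 3R, the window from 3064001 to 3066000, the second below a run of 10 kb, had -0.43 and 0.00 in wild type and 0.99 and 1.16 in the mutant. It rose by 1.29 (standard error 0.21, adjusted p = 2.65e-06 from limma), while the first flank window between it and the run had 0.04 and 0.10 in wild type and 0.27 and 0.42 in the mutant (adjusted p = 1). The window between the called one and the run was thus not called, although it was also higher in both mutant samples. The next window outwards, from 3062001 to 3064000, had -0.51 and -0.46 in wild type and -0.07 and 0.17 in the mutant. Its rise of 0.54 was not called either (adjusted p = 0.248 from limma). Input signal in the called window was 0.99 and 1.15 in wild type and 0.93 and 1.31 in the mutant.

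On 3L, the window from 562001 to 564000, next to a run of 10 kb, had -0.45 and -0.17 in wild type and 0.77 and 0.96 in the mutant. It rose by 1.18 (standard error 0.21, adjusted p = 1.35e-05). The adjoining run end, from 560001 to 562000, had 2.90 and 2.95 in wild type and 3.95 and 4.71 in the mutant, which was not called (adjusted p = 0.176). On the same arm, the window from 7292001 to 7294000, next to a run of 24 kb, had -0.05 and 0.01 in wild type and 0.93 and 1.14 in the mutant. It rose by 1.06 (standard error 0.22, adjusted p = 0.000860), and there the run end was alike, with 4.91 and 5.44 in wild type and 4.84 and 5.48 in the mutant. The mutant samples lay above both wild type samples in each of these windows. The last 3 of the 5 windows named as risen were not called without wild type replicate 1, with adjusted p of 0.226, 0.146 and 0.292 in the order given, and the window from 7292001 was also lost without wild type replicate 2 (adjusted p = 0.0804) and without mutant replicate 2 (adjusted p = 0.203).

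Besides the adjacent windows on 3R, the highest flank window in the mutant was a second flank window on 3L from 18640001 to 18642000. It had 1.75 and 1.99 in wild type and 2.44 and 2.89 in the mutant. The groups did not overlap, and the difference of 0.80 was not called by limma (adjusted p = 0.589), although it was with the replicate block (adjusted p = 1.66e-08).

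Input DNA gave no called difference between the lines in these windows. Limma on the input signal called none of the 1831 flank windows, beside 0.00% of all windows, in either direction. At an unadjusted p below 0.05, 16 flank windows were higher in the mutant (0.874% of them, beside 1.21% of all windows) and 16 lower (0.874% of them, beside 1.16% of all windows). The study's procedure for mt/WT peaks, which has no error term, was rebuilt. It placed a probe of an increased peak in 75 flank windows (4.10% of them, beside 2.80% of all windows). Decreased peaks were sought on the sign-reversed tracks, without the study's requirement that mutant probes be mostly positive. A probe of such a peak lay in 100 flank windows (5.46% of them, beside 2.72% of all windows). Wild type values chose the flank windows, so these shares are a description. Without that requirement, 76 flank windows held a probe of an increased peak (4.15% of them, beside 3.36% of all windows). Each of the 5 windows named as risen held a probe of an increased peak.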

How the data were processed

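H3K36me3 IP and input DNA of 2 wild type and 2 mutant samples were compared on 8 two-colour arrays, and no sample was left out. The authors deposited scanner intensities of Feature Extraction 10.5.1.1, whose processed intensities are background-subtracted, detrended and dye-normalized. They also deposited log2 ratios, which equal the log2 of mean minus local background signal, IP against input, up to an added constant per array. They were used as an alternative, and the submitters' processing notes name limma. Dyes were not swapped, so dye and IP cannot be separated.

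Outlier spots were left out, log2 IP/input was computed from the processed intensities, and each array was centred on its median, which left 475027 probes with a value in every sample. Weak IP spots lie close to background and are less precise, and very low signals are replaced by the scanner software, which limits values near 0. Windows of 2 kb were fitted with limma 3.58.1 (lmFit, eBayes with a trend; R 4.3.3), to compare the genotypes, and p-values were adjusted over all windows by the method of Benjamini and Hochberg, at 0.05. The fit and the search for runs were tried on simulated data. Noise in the simulated windows for the fit was independent between samples, unlike in the real samples. That trial therefore checked the code and not the calls. Peaks were rebuilt from the description in the study's methods (moving average over 5 probes, thresholds of 1 SD and 2 SD, runs of 3 probes or more, a largest gap of 1000 bp), and overlapping peaks of the replicates were joined, which gave 679 increased peaks. Details not described there were chosen here, so the peaks need not be those of the study.

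The replicate number was used as a block in an alternative fit, because the file headers give both genotypes of a number the same scan day. The difference between replicates was correlated between the genotypes (Pearson's r of 0.653 over all windows and 0.430 over the flank windows). Named windows were the 5 largest called rises and falls among flank windows of at least 5 probes that moved the same way in both pairs, the flanks of the 3 longest runs, the 3 highest and 3 lowest in the mutant, and the 3 windows on either side of the threshold. The members and lists were chosen with earlier results of these data known. Genes and sequences were not placed on the probes here. Alternatives were other background correction, deposited log2 ratios, probe and window filters, scalings, run rules, fits and samples left out. Computations used Python 3.11.15 with pandas 2.3.3 and scipy 1.17.1.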

Additional observations from a re-analysis of the deposited data

How the results depend on the processing

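Of 99 values recomputed under the alternatives, 67 moved by less than the replicate spread or, for counts, by no more than 1.5 times. These 67 include values that could not move, such as the mutant levels when a wild type sample was left out. With normexp background correction and an offset of 50, which compresses ratios of dim probes by construction, the rule gave 872 flank windows, 564 of them shared with the main set. In the main set, the mean mutant level was then 0.021, first minus second flank windows 0.435, mutant minus wild type 0.081, 1 window reached 2 in the mutant, and 11 windows were called higher. With the deposited log2 ratios 29 windows reached 2 in the mutant and 1 was called lower. When probes near background in the input were left out, 3 were called lower. Scaling by the median absolute deviation gave 15 called higher and 3 lower. Without array centring the mean mutant level was -0.051, 3 windows reached 2, and 13 were called higher and 12 lower. Without the variance trend 2 were called higher. With the replicate block 77 were called higher (4.21% of them, beside 5.40% of all windows) and 107 lower (5.84% of them, beside 3.73% of all windows). Shares called over all windows are not given for the other alternative fits, including those with a sample left out. Their counts therefore do not show whether the flank windows differ from the rest. The cause of these differences was not tested.

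With each sample left out in turn, mutant minus wild type ranged from -0.117 to 0.031, the windows at 2 or above in the mutant from 31 to 116, and those called higher from 2 to 7. With the rule on wild type replicate 1 alone, 158 windows reached 2 in mutant replicate 2, and with the rule on wild type replicate 2 alone, 22 did in mutant replicate 1. A threshold of 1.5 in place of 2 gave a mean mutant level of 0.27 and a first minus second difference of 0.51. A threshold of 2.5 gave 0.73 and 0.84, with 37 windows above it in the mutant. Of the 5 windows named as risen, those on 3R from 21094001 (adjusted p = 0.192) and on 3L from 7292001 (adjusted p = 0.810) were not called with normexp, and the 3 smaller rises were not called without the variance trend. The window from 21096001 was called in each of these 8 alternative fits (normexp, deposited ratios, replicate block, no variance trend and each sample left out).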
